A study of Sus scrofa with 23 samples.

Results

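The insulin-like growth factor (IGF) family was followed in the Longissimus, the long muscle of the back, of 23 pigs at 115 kg body weight. Its members were the ligands IGF1 and IGF2, the receptors IGF1R and IGF2R, and the binding proteins IGFBP2, IGFBP3, IGFBP4, IGFBP5 and IGFBP6. A probe was taken as a member where the scanner files named it with one of these symbols or gave the symbol in parentheses in its description. This held for 18 of the 43603 probes on the array, which covered 8 of the 9 genes. There were 6 probes for IGF2, 3 for IGFBP6, 2 each for IGF1, IGF1R and IGFBP2, 1 each for IGFBP3, IGFBP4 and IGFBP5, and 0 for IGF2R.

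The pigs came from lines that differ in residual feed intake (RFI), the feed an animal eats beyond what its growth and maintenance account for. The low-RFI group (RFIneg in the labels) held 7 pigs of the low line fed ad libitum. The restricted group (RFIplR) held 8 pigs of the high line given feed at the level of the low line, and the high-RFI group (RFIpl) held 8 pigs of the high line fed ad libitum. The labels give no cross, sex or litter, so line and any difference in ancestry between the lines cannot be told apart. Total RNA of each pig was labelled with Cy3 and hybridised to 1 single-colour array. All levels below are log2 signals minus the 75th percentile of the same array, and all differences are on the log2 scale. In such bulk tissue, fewer cells of a type and less RNA per cell cannot be told apart.

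IGF1 and IGF2 are small secreted peptides related to insulin that promote the growth and differentiation of muscle cells. Both signal through the receptor kinase IGF1R, whereas IGF2R, also known as the mannose 6-phosphate receptor, mainly takes up IGF2 and delivers it for breakdown. The binding proteins hold the ligands in blood and around cells, where they can prolong, block or locally release their action, and proteases such as pappalysin cut some of them.

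No member passed the threshold of adjusted p 0.05 in any of the 3 comparisons, and the results below are therefore measured differences that did not pass. The values for IGF2 were higher in low-RFI pigs than in either high-line group on all 6 of its probes. The values for IGFBP4 were lower in low-RFI and in restricted pigs than in high-RFI pigs, by about equal amounts. Those for IGFBP2, IGFBP5 and IGFBP6 lay lower in low-RFI pigs than in either high-line group. The group means of IGF1 differed by at most 0.19 on the tested probe that carries its symbol, while a probe named by its description alone gave lower values in restricted pigs, and the receptors were too dim to compare on the probes that carried their symbols.

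The sequences of 5 of the probes are given because these probes carry the IGF2, IGFBP4 and IGFBP5 values described below and because they show how far the IGF2 probes are separate measurements. They are copied from the scanner files, are 60 bases long and run 5′ to 3′. Capitals mark the 38 bases that the first pair of IGF2 probes shares.
IGF2 probe A_72_P537638: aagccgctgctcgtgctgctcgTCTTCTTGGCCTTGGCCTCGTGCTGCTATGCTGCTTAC
IGF2 probe A_72_P537644: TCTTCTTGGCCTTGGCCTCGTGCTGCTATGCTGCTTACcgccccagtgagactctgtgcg
IGF2 probe A_72_P544532: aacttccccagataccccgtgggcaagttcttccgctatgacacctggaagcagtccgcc
IGFBP4 probe A_72_P441554: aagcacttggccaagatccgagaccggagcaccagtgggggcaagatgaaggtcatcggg
IGFBP5 probe A_72_P146706: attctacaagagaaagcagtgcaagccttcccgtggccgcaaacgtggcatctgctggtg

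The first pair of IGF2 probes therefore reads nearly the same stretch of transcript and is not a pair of separate measurements. The third shares at most 6 bases in a row with another IGF2 probe. Likewise, the 2 IGFBP2 probes share 52 bases, and 2 of the 3 IGFBP6 probes share 28 bases. Probes of 1 gene also share the same RNA of each pig, so they are never replicates of a group.

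Between 41.7% and 79.1% of the probes on an array lay well above background. Precision is limited by how many arrays there are. They lay on 6 slides scanned on 2 days, with all 3 groups on every slide. The 4 arrays of slide 3 had the lowest median share, 50.2%. Of the 18 member probes, 15 passed the filter on dim probes, which asked for at least 6 arrays of 1 group with a signal well above background, and these covered 7 genes. None of the members was saturated. Moderated tests were fitted with limma over 27803 probes, and p-values were adjusted by the Benjamini-Hochberg method over all of them. Of all probes, 34 (0.122%) passed for low-RFI versus high-RFI pigs, 1 (0.0036%) for restricted versus high-RFI pigs, 45 (0.162%) for low-RFI versus restricted pigs and 38 (0.137%) in the F test over the 3 groups. The count among the 15 member probes was 0 in each of the 4.

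At an unadjusted limma p under 0.05, 9 of the 15 member probes stood out for low-RFI versus high-RFI pigs, 5 of them higher and 4 lower, beside 11.1% of all probes (7.19% higher and 3.91% lower). For restricted versus high-RFI pigs 2 did, both lower, beside 9.75% of all probes (4.95% higher and 4.81% lower). For low-RFI versus restricted pigs 9 did, 6 higher and 3 lower, beside 10.2% of all probes (5.57% higher and 4.61% lower). Since IGF2 alone holds 6 of the probes, counts over genes are the better guide. With the brightest probe for each gene, 3, 1 and 3 of the 7 genes had an unadjusted limma p under 0.05 in these comparisons, beside 12.6%, 10.2% and 10% of the 3791 named genes tested. The median difference over the 7 genes was -0.24 for low-RFI versus high-RFI, -0.04 for restricted versus high-RFI and -0.20 for low-RFI versus restricted pigs. Over the 3791 named genes it was 0.03, 0.02 and 0.01. The -0.20 is the value of IGFBP3 itself. The dim IGFBP3 probe passed the filter through the restricted group alone, where its mean was highest, so this median is no guide to the family. In 98 probes (0.356%) the low-RFI and high-RFI pigs did not overlap, in 20 (0.073%) the restricted and high-RFI pigs, and in 62 (0.225%) the low-RFI and restricted pigs. Every member probe tested overlapped in all 3 comparisons. The 3 comparisons share their groups, so they are not separate evidence of each other.

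**Figure D1:**
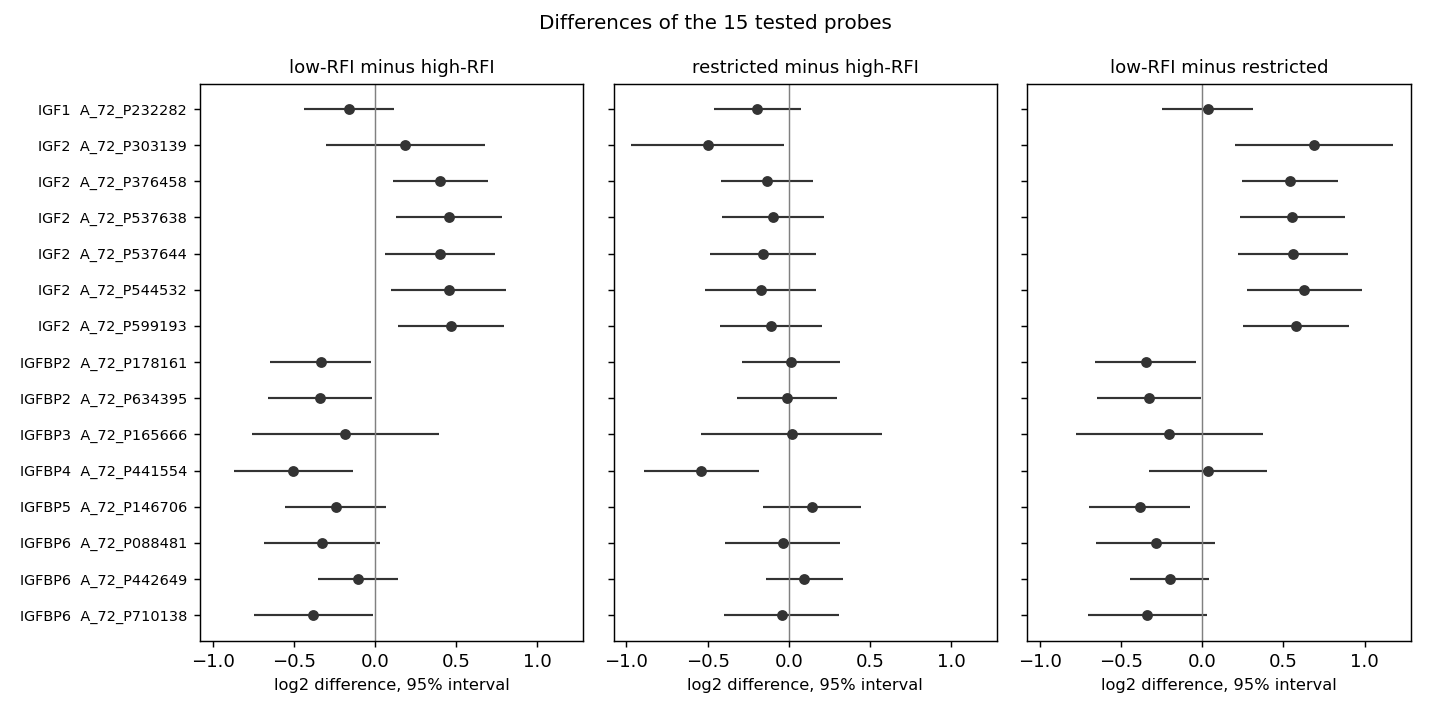
Differences of the 15 tested member probes on the log2 scale, 1 panel per comparison, with points for the limma estimate and lines for its 95% interval. The 6 IGF2 probes lie to the right of 0 in both panels that set low-RFI pigs against another group, and IGFBP4 lies to the left of 0 in both panels that set a group against high-RFI pigs, but 0 of the 15 passed after adjustment.

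Of the ligands, IGF1 was measured by 1 probe that passed the dim filter, A_72_P232282, which was well above background on all 23 arrays. Its lowest, median and highest values were -1.48, -0.84 and -0.66 in low-RFI pigs, -1.18, -1.09 and -0.59 in restricted pigs, and -1.06, -0.82 and -0.27 in high-RFI pigs. The 3 groups overlapped widely. The difference was -0.16 (SE 0.13, limma adjusted p = 0.723) for low-RFI versus high-RFI pigs and -0.19 (SE 0.13, limma adjusted p = 0.678) for restricted versus high-RFI pigs. Between low-RFI and restricted pigs it was 0.03, with a 95% interval from -0.25 to 0.31. In exact two-sided permutation tests over pigs the p was at least 0.131 in each comparison. The second IGF1 probe by symbol, A_72_P306168, was well above background on 10 of 23 arrays and was not tested. A further probe, A_72_P185381, carries no IGF1 symbol but a description that names the protein. On it the difference was 0.03 for low-RFI versus high-RFI, -0.30 for restricted versus high-RFI and 0.33 for low-RFI versus restricted pigs (limma adjusted p = 0.961, 0.499 and 0.442). The low-RFI mean of A_72_P185381 was above the restricted mean on 6 of 6 slides. The IGF1 probes A_72_P232282 and A_72_P185381 correlated at r = 0.65 over the 23 pigs.

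IGF2, the ligand that fetal muscle makes in large amounts and that adult muscle goes on to express, was read by 6 probes, all well above background on all 23 arrays. On the brightest, A_72_P376458, the lowest, median and highest values were 7.62, 7.84 and 8.25 in low-RFI pigs, 7.05, 7.26 and 7.80 in restricted pigs, and 7.00, 7.50 and 7.81 in high-RFI pigs. The low-RFI pigs were the high ones: 4 of 7 lay above every restricted pig and 4 of 7 above every high-RFI pig, although the ranges overlapped. From the other side, 6 of 8 restricted and 5 of 8 high-RFI pigs lay below every low-RFI pig. The group means were 7.87 ± 0.23 (SD, n = 7) in low-RFI, 7.33 ± 0.30 (SD, n = 8) in restricted and 7.46 ± 0.29 (SD, n = 8) in high-RFI pigs.

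The difference of the IGF2 probe A_72_P376458 between low-RFI and restricted pigs, which ate at the same level, was 0.54 (SE 0.14), a 1.45-fold higher signal, with a 95% interval from 0.24 to 0.83. Its limma adjusted p was 0.152 and its p in an exact two-sided permutation test over pigs was 0.0031, not adjusted for the 21 such tests of the 7 genes. Between low-RFI and high-RFI pigs, both fed ad libitum, the difference was 0.40 (SE 0.14), a 1.32-fold higher signal, with an limma adjusted p of 0.279 and an exact permutation p of 0.0113. Between restricted and high-RFI pigs of the same line it was -0.13, with a 95% interval from -0.42 to 0.15. The limma adjusted p there was 0.835 and the exact permutation p 0.370. With slide as a block the same 3 differences were 0.57, 0.37 and -0.20. The low-RFI mean was above the restricted mean on 6 of 6 slides and above the high-RFI mean on 5 of 6. Within scan day 1 and scan day 2, the difference of low-RFI from restricted pigs was 0.44 and 0.66, and that from high-RFI pigs 0.14 and 0.70.

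The other IGF2 probes ran the same way over all pigs. For low-RFI versus restricted pigs, their differences were 0.69, 0.55, 0.56, 0.63 and 0.58 on A_72_P303139, A_72_P537638, A_72_P537644, A_72_P544532 and A_72_P599193, with limma adjusted p between 0.171 and 0.312. For low-RFI versus high-RFI pigs they were 0.19, 0.46, 0.40, 0.46 and 0.47 in the same order, with limma adjusted p of at least 0.260. For restricted versus high-RFI pigs they ran between -0.50 and -0.10. The low-RFI mean lay above the restricted mean on 6, 5, 4, 5 and 5 of 6 slides on these probes, and above the high-RFI mean on 4, 5, 5, 5 and 5 of 6. Within scan days, low-RFI minus high-RFI was -0.31 on day 1 and 0.73 on day 2 for A_72_P303139. On the other IGF2 probes it was above 0 on both days. The high-RFI pig at 6.94 on A_72_P303139, described below, was scanned on day 1. The IGF2 probes other than A_72_P303139 correlated with each other at r between 0.92 and 0.99 over the 23 pigs.

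The IGF2 values within the restricted group are given pig by pig. On A_72_P376458 restricted replicates 1 to 8 had 7.07, 7.06, 7.05, 7.11, 7.50, 7.80, 7.63 and 7.41. On A_72_P544532, whose sequence is shown above, they had 3.63, 3.53, 3.54, 3.59, 4.12, 4.24, 4.37 and 4.10. These pigs lay on slides 1, 2, 4, 6, 6, 3, 5 and 3 in the same order. The labels give nothing that sets any of these pigs apart.

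The IGF2 probe A_72_P303139 stood apart from the other 5, with Pearson correlations of 0.47 to 0.59 with them, while the rank correlations (Spearman), which a single extreme pig moves less, were 0.68 to 0.79. High-RFI replicate 4 had 6.94 on it, whereas the other high-RFI pigs had 4.72 to 5.34, and on A_72_P376458 the same pig had 7.33, within its group. With that pig left out, the difference of A_72_P303139 was 0.42 (SE 0.15, limma adjusted p = 0.379) for low-RFI versus high-RFI pigs, in place of 0.19, and -0.27 for restricted versus high-RFI pigs, in place of -0.50. The difference of low-RFI from restricted pigs stayed at 0.69 and had an limma adjusted p of 0.0685 in that fit. Over 23 fits that each left out 1 pig, every IGF2 probe kept its sign in every comparison, with differences of 0.47 to 0.77 for low-RFI versus restricted pigs and 0.09 to 0.55 for low-RFI versus high-RFI pigs.

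When limma weighted arrays by their quality, 3 IGF2 probes passed for low-RFI versus restricted pigs. They were A_72_P599193 (0.72, limma adjusted p = 0.0341), A_72_P544532 (0.78, limma adjusted p = 0.0377) and A_72_P376458 (0.62, limma adjusted p = 0.0467). In that fit 98 of the 27803 probes (0.352%) passed for this comparison, against 45 without weights. The F test over the 3 groups called 1 member probe there, A_72_P599193 of IGF2, beside 0.655% of all probes. Taken separately and without weights, the group accounted for 42.8% of the variance of A_72_P376458 and slide for 10.6%. Here and below each such share is for that factor alone. It tends to grow with the number of levels, 3 for group and 6 for slide.

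**Figure D2:**
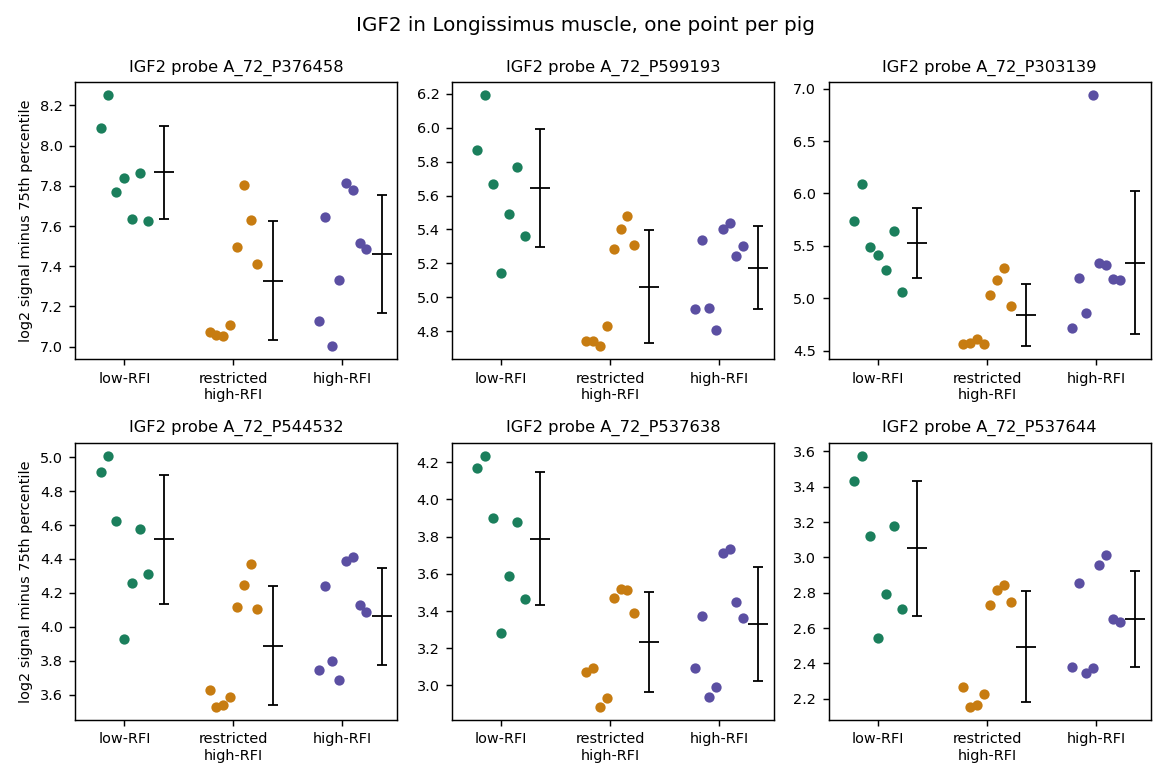
Level of the 6 IGF2 probes in each pig, as log2 signal minus the 75th percentile of its array, with the group mean and SD as bars and a separate vertical scale for each probe. Low-RFI pigs had the highest group mean on every probe, and 1 high-RFI pig at 6.94 stands apart on A_72_P303139.

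The receptor IGF1R, the kinase through which both ligands act, was near background. Its probe A_72_P146851 was well above background on 4 of 23 arrays, and A_72_P440946 on 15 of 23, 5 in each group, so neither passed the filter and no difference was tested. For IGF2R, 5 probes have a description that names the receptor without its symbol, and 3 of these passed the filter. Their differences ran from -0.30 to 0.23 over the 3 comparisons, and the limma adjusted p was at least 0.554 in each. On these 3 IGF2R probes slide accounted for 50.9%, 70.1% and 88.8% of the variance, far more than the group, which accounted for 13.4%, 4.29% and 0.693%. The IGF2R values therefore moved mostly with the slide. With slide as a block, their differences ran from -0.30 to 0.17, and the limma adjusted p was at least 0.435 in each. The -0.30 (SE 0.14) was that of A_72_P444408 for low-RFI versus restricted pigs.

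IGFBP2, which binds IGF2 with high affinity, was read by A_72_P634395 and A_72_P178161, which overlap in sequence. On A_72_P634395 the lowest, median and highest values were 0.42, 0.50 and 0.93 in low-RFI pigs, 0.54, 0.89 and 1.16 in restricted pigs, and 0.50, 0.68 and 1.72 in high-RFI pigs. Low-RFI pigs were the low ones, with 5 of 7 below every restricted pig and 4 of 7 below every high-RFI pig. The difference was -0.33 (SE 0.15, limma adjusted p = 0.476) for low-RFI versus restricted pigs and -0.34 (SE 0.15, limma adjusted p = 0.417) for low-RFI versus high-RFI pigs. It was -0.01 for restricted versus high-RFI pigs, with a 95% interval from -0.32 to 0.30. In exact two-sided permutation tests over pigs the p was 0.0126, 0.0646 and 0.959 in the same order.

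On A_72_P178161 the 7 low-RFI pigs lay between -0.16 and -0.05, against -0.11 to 0.55 in restricted and -0.09 to 1.08 in high-RFI pigs. The SD of IGFBP2 on that probe was 0.039 in low-RFI, 0.30 in restricted and 0.40 in high-RFI pigs. This difference in spread was not tested. The 2 IGFBP2 probes correlated at r = 0.92, and at 0.995 with slide means removed. Low-RFI replicate 4, at 0.93 on A_72_P634395, was at -0.05 on A_72_P178161. It lay on slide 5, where high-RFI replicate 1 had 1.13 and 0.20 and restricted replicate 7 had 0.86 and -0.11. The probes lay further apart on every slide 5 array than on any other array. A fit without low-RFI replicate 4 kept the other slide 5 arrays. In it, the IGFBP2 difference on A_72_P634395 was -0.39 (limma adjusted p = 0.365) for low-RFI versus restricted and -0.40 (limma adjusted p = 0.304) for low-RFI versus high-RFI pigs. With slide as a block and all pigs kept, these differences were -0.33 and -0.31.

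IGFBP3, the main carrier of IGFs in blood, was dim in muscle. Its probe A_72_P165666 was well above background on 4 of 7 arrays of low-RFI, 6 of 8 of restricted and 5 of 8 of high-RFI pigs, so it passed the filter through the restricted group alone. Its differences were -0.18 for low-RFI versus high-RFI, 0.02 for restricted versus high-RFI and -0.20 for low-RFI versus restricted pigs, with SE of at least 0.27. The limma adjusted p of IGFBP3 was at least 0.867 in each, and its exact permutation p at least 0.368. The 95% interval of the last ran from -0.78 to 0.37. On this dim probe it holds a fall as large as the IGF2 difference of 0.54 on A_72_P376458, but not a rise of that size.

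IGFBP4, which mostly inhibits IGF action until a protease cuts it, had the largest differences among the binding proteins. On A_72_P441554, shown above, the lowest, median and highest values were -4.09, -3.87 and -3.60 in low-RFI pigs, -4.36, -3.87 and -3.45 in restricted pigs, and -3.87, -3.53 and -2.54 in high-RFI pigs. The high-RFI pigs were the high ones, with 5 of 8 above every low-RFI pig and 3 of 8 above every restricted pig. All 7 low-RFI pigs and 7 of 8 restricted pigs lay below the high-RFI median. The probe was near background, being well above it on 6 of 7, 7 of 8 and 8 of 8 arrays of these groups.

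The IGFBP4 difference on A_72_P441554 was -0.50 (SE 0.18, limma adjusted p = 0.277) for low-RFI versus high-RFI pigs, a ratio of 0.705. It was -0.54 (SE 0.17, limma adjusted p = 0.239) for restricted versus high-RFI pigs, a ratio of 0.689. The exact two-sided permutation p over pigs was 0.0135 and 0.0138, and both comparisons use the same 8 high-RFI pigs. Low-RFI and restricted pigs differed by 0.03, with a 95% interval from -0.33 to 0.40 and an exact permutation p of 0.775. With slide as a block the first pair of differences was -0.50 and -0.55, and both held their sign on 6 of 6 slides. On slide 6, however, the high-RFI pig at -3.87 lay between the 2 restricted pigs at -3.77 and -3.97, close to their mean. The differences were larger on scan day 1, at -0.77 and -0.94, than on scan day 2, at -0.26 and -0.14, and this gap between days was not tested. Correction of the background by normexp brought the first to -0.13 and the second to -0.13. The background SD fitted by normexp was over 100 on 5 arrays, and why the differences shrank was not tested.

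A second IGFBP4 probe, A_72_P351938, carries the protein's name without its symbol and was well above background on all 23 arrays. Its lowest, median and highest values were -0.96, -0.36 and 0.04 in low-RFI pigs, -0.74, -0.36 and 0.22 in restricted pigs, and -0.29, 0.20 and 1.02 in high-RFI pigs. Here too the high-RFI pigs were the high ones. The difference was -0.56 (SE 0.17, limma adjusted p = 0.218) for low-RFI versus high-RFI, -0.51 (SE 0.16, limma adjusted p = 0.253) for restricted versus high-RFI and -0.05 for low-RFI versus restricted pigs. The 2 IGFBP4 probes correlated at r = 0.78 over the 23 pigs. On A_72_P351938 the first pair of differences was -0.89 and -0.79 on scan day 1 and -0.22 and -0.23 on scan day 2.

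IGFBP5, the binding protein that cultured mouse myoblasts make as they differentiate, was read by A_72_P146706, shown above. Its lowest, median and highest values were 1.75, 2.25 and 2.70 in low-RFI pigs, 2.32, 2.60 and 3.04 in restricted pigs, and 2.03, 2.45 and 2.88 in high-RFI pigs. The low-RFI pigs tended to the low end, with 5 of 7 below every restricted pig. The difference of low-RFI from restricted pigs was -0.39 (SE 0.15, limma adjusted p = 0.381, exact permutation p = 0.0247), and was -0.19 on scan day 1 and -0.61 on scan day 2. For low-RFI versus high-RFI pigs it was -0.24 (SE 0.15, limma adjusted p = 0.588), and for restricted versus high-RFI pigs 0.14, with a 95% interval from -0.16 to 0.45. The exact permutation p of IGFBP5 in these comparisons was 0.173 and 0.297. Slide accounted for 5.73% of the variance of IGFBP5 and the group for 24.4%.

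IGFBP6, which prefers IGF2 to IGF1, was read by 3 probes. On A_72_P088481 the spot of restricted replicate 2 was marked as an outlier by the scanner software and left out, so that group has 7 values there. The lowest, median and highest values were 4.37, 4.86 and 5.36 in low-RFI pigs, 4.65, 5.06 and 5.86 in restricted pigs, and 4.83, 5.36 and 5.63 in high-RFI pigs. The groups overlapped, with 2 of 7 low-RFI pigs below every high-RFI pig. The difference was -0.32 (SE 0.17, limma adjusted p = 0.502) for low-RFI versus high-RFI, -0.29 (SE 0.18, limma adjusted p = 0.609) for low-RFI versus restricted and -0.04 for restricted versus high-RFI pigs. In exact two-sided permutation tests over pigs the p was 0.0449, 0.185 and 0.839 in the same order. The overlapping probe A_72_P710138, with a value in all 23 pigs, gave -0.38, -0.34 and -0.04, and the separate IGFBP6 probe A_72_P442649 gave -0.11, -0.20 and 0.10 in the same order. The first pair of these probes correlated at r = 0.99, and A_72_P442649 correlated with them at 0.83 and 0.82.

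**Figure D3:**
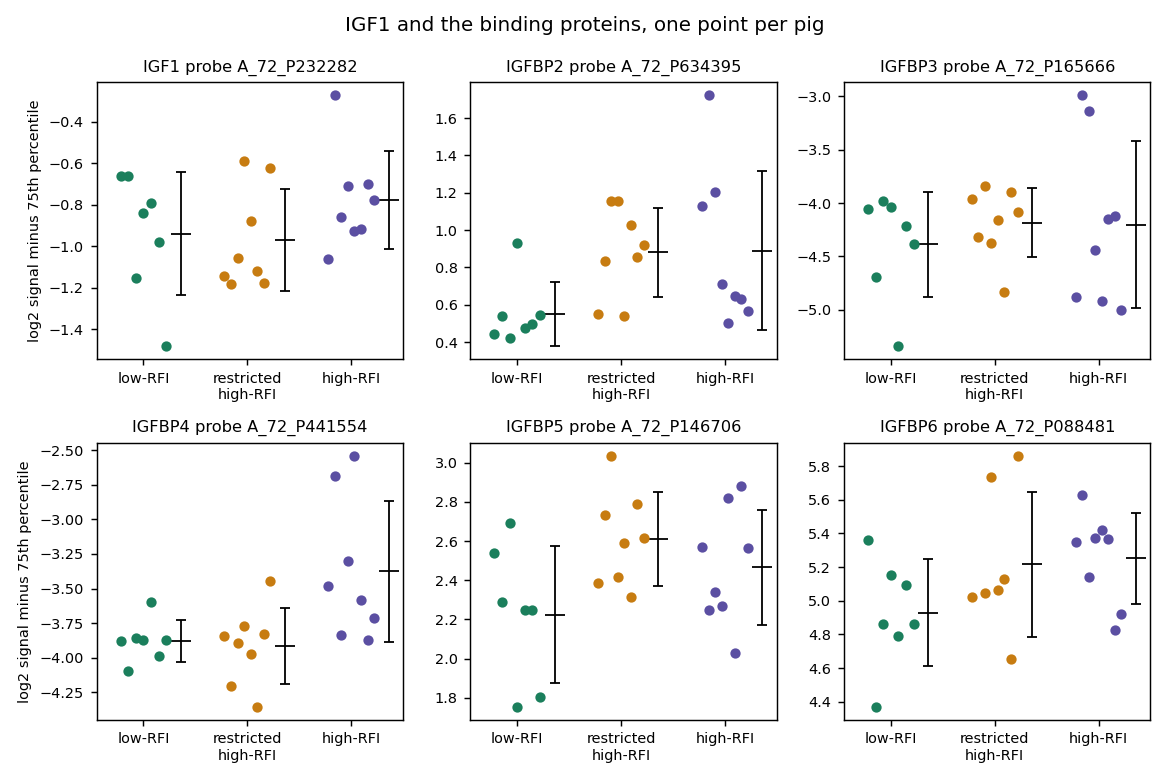
Level of IGF1 and of the 5 binding proteins on their brightest member probe in each pig, as log2 signal minus the 75th percentile of its array, with the group mean and SD as bars and a separate vertical scale for each gene. The 8 high-RFI pigs reach highest for IGFBP4, 5 of 7 low-RFI pigs lie below every restricted pig for IGFBP5, and all groups overlap in every panel.

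**Figure D4:**
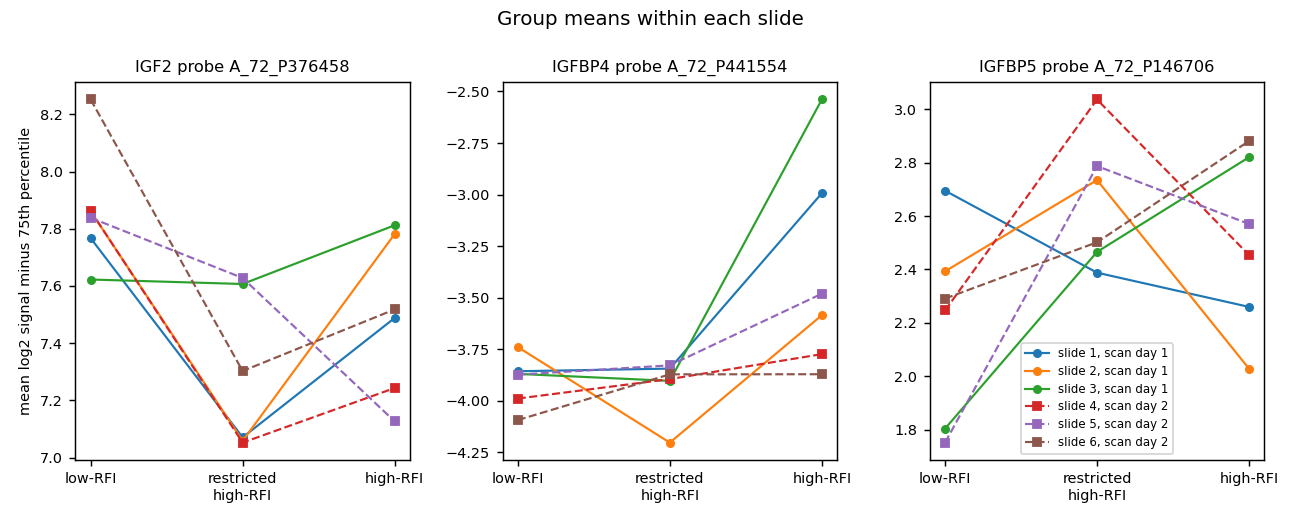
Mean level of IGF2, IGFBP4 and IGFBP5 in each group on each of the 6 slides, with lines joining the groups of 1 slide and line style marking the scan day. For IGF2 the low-RFI mean lies above the restricted mean on 6 of 6 slides, and for IGFBP4 the high-RFI mean lies above the low-RFI mean on 6 of 6 slides and meets the restricted mean on slide 6, with the widest gaps on slides 1 and 3 of scan day 1.

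Over the pigs, members moved together only in part, and the correlations are given as descriptions over 23 pigs that share slides and groups. Among the brightest probes, IGFBP4 and IGFBP6 correlated at r = 0.52 (22 pigs), IGFBP2 and IGFBP3 at 0.51, and IGF2 and IGFBP2 at -0.43. With group means removed the 3 values were 0.51, 0.50 and -0.19, so much of the last lay between the groups. On their brightest probes the ligands IGF1 and IGF2 correlated at 0.16. The IGF1 probe A_72_P185381, named by its description alone, correlated with the same IGF2 probe, A_72_P376458, at 0.46. With group means removed these values were 0.25 and 0.34. The within-group SD of the member probes ran from 0.21 for the IGFBP6 probe A_72_P442649 to 0.54 for IGFBP3, around the median of 0.29 over all probes.

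The upstream and downstream genes of the pathway were counted from lists chosen with earlier results of these data known. Of 14 genes of the growth hormone axis and of IGF carriers, 10 were measured, and none passed after adjustment in any comparison. Their median difference was -0.01 for low-RFI versus high-RFI, 0.06 for restricted versus high-RFI and -0.09 for low-RFI versus restricted pigs. Of 30 genes of receptors and signalling, 11 were measured, none passed after adjustment, and the medians were -0.01, 0.06 and -0.13. At an unadjusted limma p under 0.05, the growth hormone list held 1 higher and 1 lower gene for low-RFI versus high-RFI, 3 higher for restricted versus high-RFI and 1 lower for low-RFI versus restricted pigs, and the signalling list held 0, 2 higher and 1 lower. Of the 3791 named genes tested, 308 were higher and 171 lower at that threshold in the first comparison, 209 and 178 in the second, and 186 and 194 in the third. Of 6 genes listed for the IGF2 locus and its mRNA, the insulin gene INS among them, 1 had a probe and 0 passed the dim filter.

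Low-RFI pigs differed from high-RFI pigs by 0.31 (SE 0.11, limma adjusted p = 0.306) in STAT5B, which carries the growth hormone signal to the nucleus, and by -0.24 (SE 0.11, limma adjusted p = 0.413) in the IGF-binding protein relative IGFBP7. Restricted pigs differed from high-RFI pigs by 0.35 in GRB10, an adaptor that dampens signalling from the insulin and IGF1 receptors, with an limma adjusted p of 0.372. In the same comparison the differences were 0.44 in EIF4EBP1, a brake on translation that is released by mTOR, 0.24 in the growth hormone receptor GHR and 0.25 in STAT5B, with limma adjusted p of 0.444, 0.448 and 0.450. Low-RFI pigs differed from restricted pigs by -0.83 (SE 0.28, limma adjusted p = 0.300) in STC1, which encodes stanniocalcin, known in mouse and human as an inhibitor of the pappalysins. FOXO1, a transcription factor that insulin and IGF1 signalling keeps out of the nucleus, differed by -0.43 (SE 0.18, limma adjusted p = 0.410) in that comparison, and its relative FOXO3 by 0.42 (SE 0.22, limma adjusted p = 0.528).

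Markers of the cell types in a muscle sample were measured on the same arrays. All 7 measured skeletal muscle fibre markers had higher values in low-RFI than in high-RFI pigs (median 0.15) and than in restricted pigs (median 0.11), none past the threshold, with list means of 9.39 to 9.67 in low-RFI, 9.13 to 9.71 in restricted and 9.22 to 9.63 in high-RFI pigs. For 7 measured adipocyte markers the list means ran from -0.005 to 1.24 in low-RFI, 0.07 to 1.62 in restricted and -0.27 to 2.20 in high-RFI pigs, and 7 of 7 were lower in low-RFI than in high-RFI pigs (median -0.53) and 6 of 7 lower than in restricted pigs (median -0.47). For 6 fibroblast and matrix markers the means ran from 2.04 to 2.43 in low-RFI, 1.79 to 2.53 in restricted and 1.87 to 2.68 in high-RFI pigs, and the probe named COL3A1 among them has a description that names another gene. The means of 5 endothelial markers were 0.91 to 1.24, 0.77 to 1.48 and 0.84 to 1.79, and those of 5 leukocyte markers were -0.78 to 0.63, -0.74 to 0.75 and -0.16 to 0.76 in the same order of groups. All 5 leukocyte markers were lower in low-RFI than in high-RFI pigs, as were 4 of 6 fibroblast and 3 of 5 endothelial markers. In restricted against high-RFI pigs, 5 of 6 fibroblast, 4 of 5 endothelial and 4 of 5 leukocyte markers were lower. In that comparison 4 of 7 adipocyte markers were lower and 5 of 7 muscle fibre markers higher. Of 4 Schwann cell markers 1 was measured, and of 4 satellite cell and myoblast markers 2. None of the markers named in these lists passed after adjustment.

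With group means removed, IGFBP4 on A_72_P441554 correlated with the mean of the fibroblast list at r = 0.52, the adipocyte list at 0.49, the endothelial list at 0.49 and the muscle fibre list at -0.47. On the other IGFBP4 probe, A_72_P351938, the endothelial list reached 0.70 and the adipocyte list 0.65. IGFBP6 on A_72_P088481 correlated with the fibroblast list at 0.64 and the endothelial list at 0.56, and IGF1 on A_72_P232282 with the leukocyte list at 0.71. On the IGF1 probe A_72_P185381, named by its description alone, the leukocyte list gave only 0.23 and the fibroblast list 0.54. For IGFBP2, the endothelial list gave 0.54 on A_72_P634395 and 0.66 on A_72_P178161. The IGF2 probe A_72_P376458 gave 0.25 for muscle fibre, -0.19 for adipocytes, 0.30 for fibroblasts, 0.09 for endothelium and 0.23 for leukocytes. With group means kept, its r with the muscle fibre list was 0.44 and with the adipocyte list -0.36, and the muscle fibre list gave 0.44 to 0.53 on the other IGF2 probes apart from A_72_P303139, where it gave 0.20. With group means removed, marker lists moved with IGFBP4, IGFBP6, IGFBP2 and IGF1, and less with IGF2. The part of the marker lists in the group differences was not tested.

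**Figure D5:**
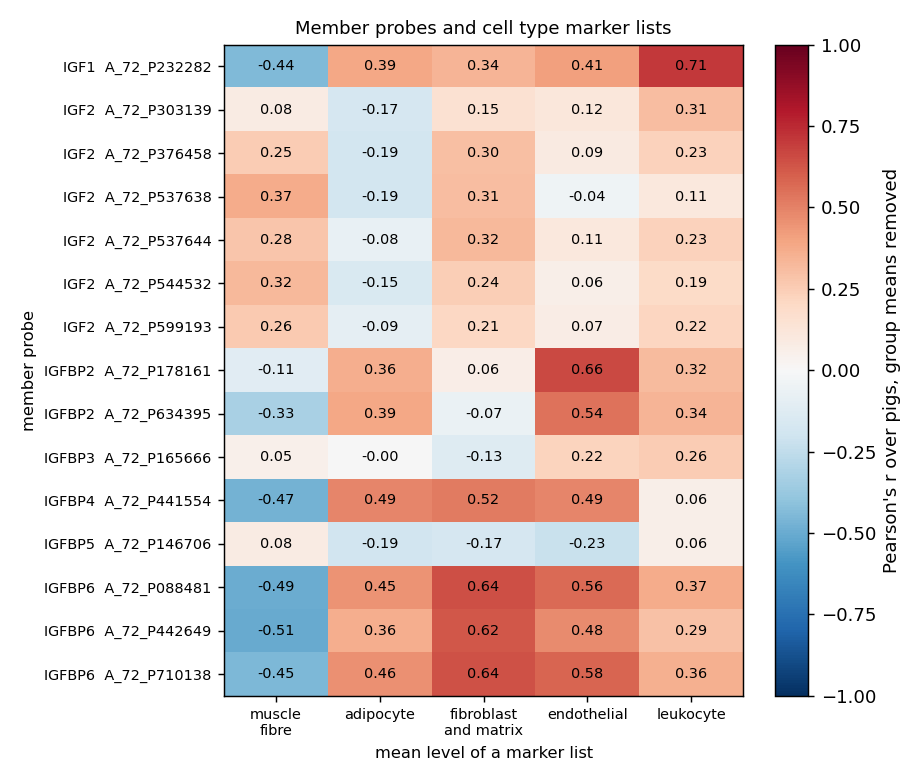
Pearson's r over the pigs, group means removed, between each of the 15 tested member probes and the mean level of 5 cell type marker lists, with red for positive and blue for negative values. IGFBP4 and IGFBP6 follow the adipocyte, fibroblast and endothelial lists and run against the muscle fibre list. The IGF1 probe A_72_P232282 follows the leukocyte list at 0.71, whereas the IGF1 probe A_72_P185381, not shown, gave 0.23. The IGF2 probes stay between -0.19 and 0.37.

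The genes whose pattern over the pigs was most like that of each member were sought among 3714 named genes, after slide means were removed, and are given as a description over pigs that share the groups. For IGF1 they were ACP5 and COL5A2, both with r = 0.88. IGF2 was followed by SIM1 at 0.79 (0.42 before slide means were removed) and CNN1 at 0.78, and IGFBP2 by PDHA1 and PPIF, both at 0.85. For IGFBP3 they were KLF7 at 0.83 and SDC4 at 0.78, and for IGFBP4 MAN1A2 at 0.86 and MS4A2 at 0.83. IGFBP5 had the loosest matches, MYOD1 and SPAG17, both at 0.66, and IGFBP6 the closest, PHF6 at 0.91 and CD302 at 0.84, over 22 pigs. Before slide means were removed each of these r was lower, from 0.42 for SIM1 to 0.81 for CD302, with 0.56 for MS4A2 and 0.44 for MYOD1. Because each match is among the highest of 3714 correlations over few pigs, the search alone raises its r, and no match was tested.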

How the data were processed

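Longissimus RNA of 23 pigs was measured on single-colour Agilent arrays, 1 for each pig. Per the file headers, Feature Extraction 10.7.3.1 subtracted the background from each deposited spot intensity and detrended it within the array. The deposited log2 value table, used as an alternative only, held 26410 probes and differed from the log2 of these intensities by 1 constant per array. The submitters' processing notes name R 2.10.0. Here the log2 processed signal was taken minus the 75th percentile of each array, spots marked as outliers were dropped, and spots of a probe were averaged. The 3 groups were fitted together with limma 3.58.1 in R 4.3.3, with Benjamini-Hochberg adjustment over 27803 probes and a threshold of adjusted p 0.05. Exact permutation tests over pigs were run on the brightest probe of each gene. The script was tested on simulated data. Names came from the files and, for 5410 probes, from RefSeq accessions (Sscrofa11.1). 65 probes whose names were at odds with their descriptions were not named. The members, lists and tests were chosen with earlier results of these data known. The named genes were all members, at most 4 pathway genes of smallest p in each comparison, and the 2 genes most like each member. Probes named by their description alone, and pigs singled out within a group, were picked with their values in view. The file headers gave slide and scan day. The labels name separate pigs, with nothing on litters or pens, so p-values measure the spread between these pigs. Settings were changed 1 at a time as the closing section gives.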

Additional observations from a re-analysis of the deposited data

Results flagged for a closer look

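In 60 sets of values, each 1 tested probe in 1 group, over the 15 member probes and 5 probes named by their description alone, 3 held a highest or lowest pig whose gap to its nearest neighbour was large for the group's range, and chance gives about 1 in 20. On the IGF2 probe A_72_P303139, high-RFI replicate 4 had 6.94, against 5.34 for the next pig and 4.72 at the other end. On the IGF1 probe A_72_P232282, high-RFI replicate 2 had -0.27, against -0.70 for the next pig and -1.06 at the other end. Without it, the IGF1 difference was -0.09 for low-RFI against high-RFI and -0.12 for restricted against high-RFI pigs, in place of -0.16 and -0.19. On the IGFBP2 probe A_72_P634395, low-RFI replicate 4 had 0.93, against 0.55 for the next pig and 0.42 at the other end. It was the only low-RFI pig on slide 5, where every array read high on this probe relative to A_72_P178161.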

How the results depend on the processing

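Array weights brought 3 member probes past the threshold for low-RFI against restricted pigs and 1 in the F test, all of IGF2, with 0.62 on its brightest probe. In every other setting run the count of member probes past the threshold was 0. An adjusted p under 0.01 could give nothing else, as the main fit had 0. The other settings were median centring, quantile normalization, normexp with an offset of 50, the deposited table, 2 other filters on dim probes, a trended robust variance, the replicate block, slide as a fixed and as a random block, only the groups compared, an adjusted p under 0.01, the mean of a gene's probes, each pig left out, and, added after the data were seen, a block for scan day and a fit without slide 3. The replicate numbers of the labels showed no clear pairing of pigs: over 22 pairs with the same number, correlations of their deviations ran from -0.30 to 0.33, and 7 were over 0.1. Pairs with unlike numbers were not compared, so this check cannot exclude a pairing. With the replicate block, 0 member probes passed in each comparison, and 8, 1 and 9 had an unadjusted limma p under 0.05. Of 810 differences of single genes over these settings and the exact permutation tests, 780 kept their sign and side of the threshold, 29 changed sign and 1 passed. Part of the 780 could not change sign, so their share overstates how stable the differences are. The permutation tests, the filters on dim probes, the trended robust variance and fits without a pig of the third group keep the difference as it was. Differences that changed sign were all small. For restricted against high-RFI pigs, IGFBP2 was 0.043 with median centring, 0.000624 in the deposited table, 0.014 with array weights, 0.023 and 0.00246 with slide as a fixed and a random block, and 0.00245 as the mean of its probes. IGFBP6 was 0.0045 with median centring, and IGFBP3 was -0.17 with quantile normalization and -0.037 with normexp. For low-RFI against restricted pigs, IGFBP4 was -0.025 with quantile normalization. With each pig left out in turn, IGF1 ran from -0.014 to 0.12 and IGFBP4 from -0.029 to 0.10 for low-RFI against restricted pigs. For restricted against high-RFI pigs IGFBP2 ran from -0.065 to 0.11, IGFBP3 from -0.10 to 0.19 and IGFBP6 from -0.15 to 0.056. Normexp gave a background SD over 100 on 5 arrays. IGFBP3 gave no value in the deposited table, and IGFBP3 and IGFBP4 gave none under the filter for signal on every array. Dim probes limit what can be said of IGF1R and IGFBP3.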
